A study of Mus musculus with 2 samples.

Results

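Imprinted genes, which are read from the copy inherited from 1 parent only, were followed in mature mouse oocytes from mothers that had been slimmed and from control mothers. The members were 37 imprinted genes listed by symbol and grouped by the parental copy known to be active, 19 paternally expressed, 14 maternally expressed and 4 (Grb10, Gnas, Inpp5f and Ddc) whose active copy differs by tissue or transcript. Of the 37, 32 were matched by Ensembl identifier to the 36227 genes of the table and 22 had counts. Kcnq1ot1, Peg10, Peg13, Snrpn and Rian were not matched, so no counts under their names are analysed here. Kcnq1ot1, Snrpn and Rian enter only the promoter search.

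The slimming group was 3 female ICR mice, an outbred strain, that became obese by the age of 12 weeks in ordinary housing and then lived 4 weeks in enriched-environment cages. The control group was 3 female ICR mice with the same history that stayed in normal cages and, per the labels, were fed a standard diet. At 16 weeks of age 3 naturally ovulated oocytes at metaphase II were taken per mouse, and the 9 from each group went into 1 tube and 1 library. Each group was therefore 1 pooled library, with 20947962 counts in slimming oocytes and 20242289 in control oocytes. No difference below has a replicate check, and no p-value was computed, so all of them are differences between these 2 pools, and the 95% intervals cover counting error only. Levels are CPM (the usual scaling of counts to the library total), and ratios are slimming over control on the log2 scale after scaling the libraries with TMM factors.

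An egg holds only the mother's chromosomes, so the label of a gene as paternally expressed describes the embryo and later tissues, where the 2 parental copies can be told apart. The mark that tells them apart is DNA methylation laid down in the germ line. During oocyte growth the methyltransferase DNMT3A, with its partner DNMT3L, methylates a set of control regions, several of which are the promoters of paternally expressed genes, and a smaller set is methylated in sperm instead (the regions of Igf2 with H19, of Dlk1 with Meg3, and of Rasgrf1). After fertilization the zinc finger protein ZFP57, with TRIM28, keeps the methylation in place. Many imprinted genes act on growth: IGF2 promotes it, IGF2R removes IGF2, and GRB10, CDKN1C and PHLDA2 restrain it.

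Of the 32 matched genes 22 had counts, and 10 (31.2%) reached 10 CPM in at least 1 library, where 49.7% of all genes in the table had counts and 15.8% reached that level. Another 6 lay between 1 and 10 CPM, 6 had counts but stayed under 1 CPM, and 10 were blank in the table, read as no count in either library (H19, Zim1, Sgce, Ndn, Magel2, Mkrn3, Dlk1, Rasgrf1, Nnat and Impact). For a gene without a count, the limit is 3 counts: 0.143 CPM in slimming oocytes and 0.148 CPM in control oocytes. In pooled samples, fewer cells of a type and less RNA per cell cannot be told apart. Of the 13 matched maternally expressed genes 5 reached 10 CPM, of the 15 paternally expressed genes 2 did (Airn and Igf2), and of the 4 with a mixed pattern 3 did. Igf2 and Phlda2 passed that limit only through the control library, and by the mean of both libraries the same number of genes, 10, passed.

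**Figure D1:**
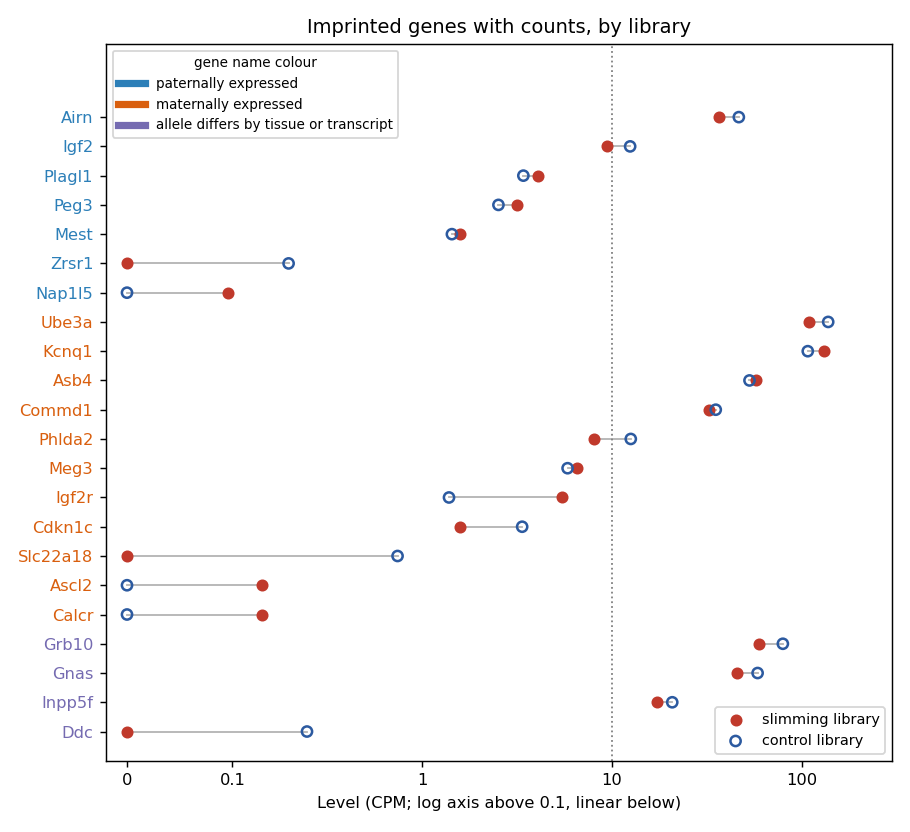
Level of the 22 imprinted genes with counts in CPM (x axis, log above 0.1 and linear below) in the slimming library (filled red) and the control library (open blue), by the colour of the gene name as paternally expressed, maternally expressed or mixed. The dotted line is 10 CPM: 10 genes reach it in at least 1 library, among them Airn and Igf2 of the paternally expressed group.

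None of the 10 genes at 10 CPM or more was 2-fold apart between the libraries. Among all 5714 genes at that level 4.67% were, 2.73% with the slimming library higher and 1.94% with it lower by that much. Of the 10, 8 had a ratio below 0 and 2 (Kcnq1 and Asb4) above it. Of all 5714 genes at that level, 2777 were below 0 and 2937 above. Counting intervals lay wholly below 0 for 7 and wholly above 0 for 1, against 35.1% and 37.7% of expressed genes. The ratios ranged from -0.68 (Phlda2) to 0.26 (Kcnq1), with a median of -0.37 beside 0.02 over all expressed genes. Across the 16 genes at 1 CPM or more the median was -0.22, with 7 above 0 and 9 below. Of all 11010 genes at 1 CPM or more, 5636 were above 0 and 5374 below. These medians are a description of 2 libraries.

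**Figure D2:**
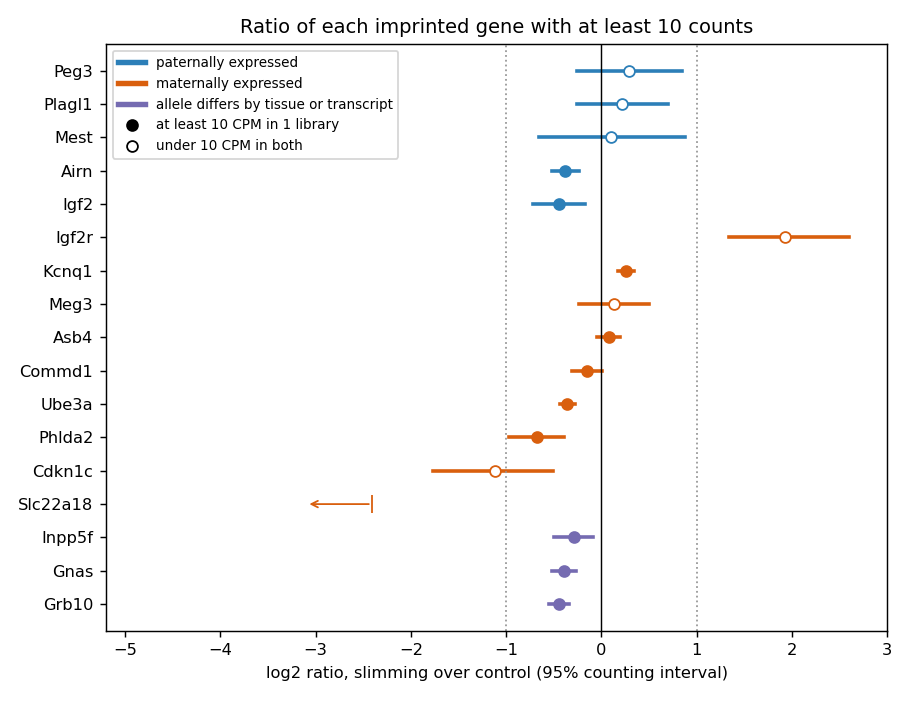
log2 ratio of slimming over control (x axis) with its 95% counting interval for the 17 imprinted genes with a sum of at least 10 counts, coloured by parental group, with filled points at 10 CPM or more. Filled points lie between -0.68 and 0.26, Igf2r stands at 1.93, and the arrow for Slc22a18 starts at its bound of at least 5.29-fold lower.

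Among paternally expressed genes the highest level per kilobase of exon was that of Airn (ENSMUSG00000078247, chromosome 17), a long noncoding RNA that runs antisense to Igf2r and silences it on the paternal copy. Airn had 767 counts (36.6 CPM) in slimming oocytes and 942 counts (46.5 CPM) in control oocytes, a log2 ratio of -0.38 (interval -0.52 to -0.24). It held 66.8% of the counts of the paternally expressed group in slimming oocytes and 69.9% in control oocytes.

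Igf2 (ENSMUSG00000048583, chromosome 7), the growth factor of the fetus, had 196 counts (9.36 CPM) in slimming oocytes and 252 counts (12.4 CPM) in control oocytes. Its log2 ratio was -0.44 (interval -0.72 to -0.17). Igf2 shares exon sequence with the antisense gene Igf2os, which was blank, and with the readthrough model Gm49394, which was not matched.

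The other paternally expressed genes with counts stood under 10 CPM. Plagl1, a zinc finger transcription factor, had 85 counts in slimming oocytes and 69 in control oocytes (log2 0.22, interval -0.26 to 0.70). Peg3, a large zinc finger protein that affects maternal behaviour in mice, had 66 and 51 counts in slimming and control oocytes (log2 0.29, interval -0.26 to 0.85). Mest, a member of the hydrolase fold family, had 33 and 29 counts in slimming and control oocytes (log2 0.10, interval -0.66 to 0.88). All 3 intervals included 0. Mest also shares exon sequence with Copg2, a coat protein gene on the other strand at 234 CPM in slimming oocytes and 239 CPM in control oocytes, so without strand, reads of the pair cannot be told apart there. Nap1l5 had 2 counts in slimming oocytes and 0 in control oocytes, and Zrsr1, a splicing factor relative, had 0 and 4 counts in slimming and control oocytes, too few for a ratio to be read.

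The median ratio of the paternally expressed genes was -0.41 over the 2 at 10 CPM or more and 0.10 over the 5 at 1 CPM or more, so its sign turned with the level required. Summed, the group had 54.9 CPM in slimming oocytes and 66.5 CPM in control oocytes, and slimming oocytes gave 46.0% of its counts (exact interval 44.1 to 48.0) where the slimming library held 50.9% of all counts. Without Airn the share was 48.5% (44.99 to 52.1), an interval that includes 50.9%.

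Among the listed genes 13 have a promoter of their own that is known to be methylated in the oocyte, all of them paternally expressed. Of these 9 were matched, 6 had counts, 4 reached 1 CPM and 1, Airn, reached 10 CPM. Of all genes in the table, 49.7% had counts, 30.4% reached 1 CPM and 15.8% reached 10 CPM, and nothing particular to these genes is read from their counts. Of the 23 other matched genes 16 had counts and 9 reached 10 CPM. No test of this split was made, and the methylation was not measured in these samples.

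Promoter sequences were searched for the letters that the imprint-keeping protein ZFP57 reads. RefSeq promoters (build GRCm38.p6, 250 bases before to 50 after the start) were found for 30 of the 37 genes, 47 promoters in all. The letters TGCCGC, on either strand, are the core that ZFP57 is known to bind when methylated. They occurred in a promoter of 5 of the 9 genes with an oocyte-methylated promoter (55.6%), of 6 of the 21 other imprinted genes (28.6%) and of 13.1% of all 27025 genes with a promoter. Counted per promoter, the shares were 42.9%, 18.2% and 11.6%. The first is 6 of 14 promoters, in which overlapping Mest promoters that hold the core are counted separately. All listed promoters of a gene were counted, several of them for Snrpn. The first group can therefore include promoters other than the methylated one, also in its CpG median. These 9 genes are not the 9 matched genes above. They include Snrpn, which holds the core, and Kcnq1ot1, and they lack Sgce and Impact, for which no promoter was found. A match is a run of letters and not a measured binding site, and the core holds a CpG. The median number of CpG dinucleotides was 9.5 in the oocyte-methylated group, 15 in the other imprinted genes and 7 over all promoters, and the shares were not matched for it. Mest has 3 listed promoters, of which 1 has no core; 1 of the others is shown. Below are the 250 bases before the start of Mest, Plagl1 and Nap1l5, shown because they hold the core and because these genes stood between 0 and 4.06 CPM in both libraries; capitals mark the core on either strand.
Mest (chr6:30737800-30738049, plus strand): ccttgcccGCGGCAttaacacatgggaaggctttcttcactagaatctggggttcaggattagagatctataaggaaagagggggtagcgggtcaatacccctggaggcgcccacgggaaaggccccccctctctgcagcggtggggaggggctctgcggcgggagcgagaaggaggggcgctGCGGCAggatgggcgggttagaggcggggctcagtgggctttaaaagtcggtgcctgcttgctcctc
Plagl1 (chr10:13090582-13090831, plus strand): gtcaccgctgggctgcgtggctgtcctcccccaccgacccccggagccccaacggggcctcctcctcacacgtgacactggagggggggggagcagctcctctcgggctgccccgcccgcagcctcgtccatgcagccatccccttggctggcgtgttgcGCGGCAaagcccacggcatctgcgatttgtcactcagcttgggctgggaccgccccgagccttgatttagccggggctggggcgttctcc
Nap1l5 (chr6:58907127-58907376, minus strand): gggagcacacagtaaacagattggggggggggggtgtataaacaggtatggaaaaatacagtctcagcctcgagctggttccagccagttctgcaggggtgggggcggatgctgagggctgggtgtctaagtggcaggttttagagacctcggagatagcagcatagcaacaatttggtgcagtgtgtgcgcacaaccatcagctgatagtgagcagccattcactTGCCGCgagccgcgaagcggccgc

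Several imprinted genes lie inside or beside another gene, or share exon sequence with one, and the counts of 5 such neighbours follow. Blcap, whose intron holds the blank gene Nnat (a small membrane protein), had 340 CPM in slimming oocytes and 266 CPM in control oocytes (log2 0.33, interval 0.27 to 0.38). Trappc9, the host of the unmatched Peg13, had 87.0 CPM in slimming oocytes and 81.8 CPM in control oocytes. Usp29, a deubiquitinase gene that starts beside Peg3 and is also paternally expressed, had 2.26 CPM per kb in slimming oocytes and 2.22 CPM per kb in control oocytes, against 0.236 and 0.189 CPM per kb of Peg3 in slimming and control oocytes. Herc3, the host of Nap1l5, was low itself, at 3.29 CPM in slimming oocytes and 2.17 CPM in control oocytes. Gm38393, the annotated gene that shares exon sequence with the unmatched Snrpn on the same strand, had 15.6 CPM in slimming oocytes and 14.0 CPM in control oocytes (log2 0.12, interval -0.12 to 0.35). They share 589 exon bases, so part or all of this count could belong to Snrpn. The values given here for paternally expressed genes and for oocyte-methylated promoters leave it out.

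Maternally expressed genes held the highest levels. Kcnq1 (ENSMUSG00000009545, chromosome 7), a potassium channel subunit, had 2752 counts (131 CPM) in slimming oocytes and 2174 counts (107 CPM) in control oocytes. Its log2 ratio of 0.26 (interval 0.18 to 0.34) was the only one at 10 CPM or more with an interval above 0. Kcnq1 shares 121 exon bases with its antisense RNA Kcnq1ot1, so part of its count could belong to that RNA.

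Ube3a (ENSMUSG00000025326, chromosome 7), a ubiquitin ligase that is maternally expressed in neurons and read from both copies in most other cells, went the other way. It had 2296 counts (110 CPM) in slimming oocytes and 2785 counts (138 CPM) in control oocytes, a log2 ratio of -0.36 (interval -0.44 to -0.28). Ube3a shares exon sequence with antisense transcripts of the Snhg14 locus.

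Asb4, a substrate adaptor of ubiquitin ligases, had 1196 counts (57.1 CPM) in slimming oocytes and 1072 counts (53.0 CPM) in control oocytes, and Commd1, a regulator of copper transport and protein turnover, had 678 and 712 counts (32.4 and 35.2 CPM) in slimming and control oocytes. Their intervals, -0.04 to 0.20 and -0.31 to 0.0024, included 0. Commd1 holds Zrsr1 in an intron and shares 412 exon bases with it.

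Phlda2 (ENSMUSG00000010760, chromosome 7), a small protein that limits growth of the placenta, had 168 counts (8.02 CPM) in slimming oocytes and 254 counts (12.5 CPM) in control oocytes. With the lowest ratio (log2 -0.68, interval -0.97 to -0.39) it stood apart most among the 10 genes, and it shares no exon sequence with another gene. Meg3, a long noncoding RNA, had 137 counts in slimming oocytes and 118 in control oocytes (log2 0.13, interval -0.23 to 0.50). Ascl2, a trophoblast transcription factor, and Calcr, the calcitonin receptor, each had 3 counts in slimming oocytes and 0 in control oocytes, which is at the floor.

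Per kilobase of exon, the order of levels was the same at the top of both libraries. Kcnq1 led with 32.1 CPM per kb in slimming oocytes and 26.2 CPM per kb in control oocytes, followed by Asb4 (14.5 and 13.5 CPM per kb in slimming and control oocytes), Airn (10.2 and 12.9), Phlda2 (7.15 and 11.2) and Grb10 (6.55 and 8.73). Commd1 and Ube3a stood in opposite order below them, at 5.45 and 5.31 CPM per kb in slimming oocytes and 5.93 and 6.67 CPM per kb in control oocytes. Gnas, Inpp5f and Igf2 came last in both, Igf2 at 1.63 CPM per kb in slimming oocytes and 2.18 CPM per kb in control oocytes. With 1 library per group, no spread is at hand to say which neighbours in this order differ, and priming at the poly(A) tail makes a level per length approximate.

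The largest ratio of any member above 1 CPM was that of Igf2r (ENSMUSG00000023830, chromosome 17), the receptor that carries IGF2 to the lysosome and sorts lysosomal enzymes. It had 114 counts (5.44 CPM) in slimming oocytes and 28 counts (1.38 CPM) in control oocytes, 3.80-fold higher (log2 1.93, interval 1.34 to 2.60). Airn, the antisense RNA that starts in an intron of Igf2r, had the opposite sign. The genes overlap on opposite strands but share no exon bases. Among 2911 genes with a mean level within 2-fold of that of Igf2r, 12.9% were higher by 2-fold or more and 11.0% were lower by as much. A ratio as large as that of Igf2r was found for 2.61% of them upward and 3.06% downward. In the authors' deposited table Igf2r had a scaled log2 ratio of 1.98 and was among 9 members, of 18 with a deposited ratio, that were marked at a p-value of 0.001. It rests on reads alone, and 35.9% of the 15263 genes with a ratio in the authors' deposited table carried the mark.

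The promoters of this pair are shown because the 2 genes are read from opposite strands of one locus and had ratios of opposite sign. The 250 bases before the start held 27 CpG dinucleotides for Igf2r and 2 for Airn, with no TGCCGC core in either stretch.
Igf2r (chr17:12769707-12769956, minus strand): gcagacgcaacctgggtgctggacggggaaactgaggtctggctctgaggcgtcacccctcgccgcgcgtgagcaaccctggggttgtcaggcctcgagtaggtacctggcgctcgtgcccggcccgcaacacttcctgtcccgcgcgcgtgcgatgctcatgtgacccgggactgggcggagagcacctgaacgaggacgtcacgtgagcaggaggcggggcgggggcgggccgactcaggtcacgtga
Airn (chr17:12741061-12741310, plus strand): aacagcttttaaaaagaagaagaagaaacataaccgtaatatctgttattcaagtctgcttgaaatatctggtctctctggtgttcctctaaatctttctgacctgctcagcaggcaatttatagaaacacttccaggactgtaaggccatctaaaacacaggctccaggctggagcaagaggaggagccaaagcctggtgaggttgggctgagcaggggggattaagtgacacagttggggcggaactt

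Of the 16 members at 1 CPM or more, 2 were 2-fold apart, Igf2r upward and Cdkn1c downward. Of all 11010 genes at this level 18.4% were, 9.43% upward and 8.96% downward. Cdkn1c, an inhibitor of cyclin-dependent kinases, had 33 counts (1.58 CPM) in slimming oocytes and 68 counts (3.36 CPM) in control oocytes, 2.16-fold lower (log2 -1.11, interval -1.77 to -0.50). Of 2915 genes within 2-fold of its level, 15.2% were higher by 2-fold or more and 14.4% were lower by as much. Nothing particular to the imprinted genes is read from these counts.

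**Figure D3:**
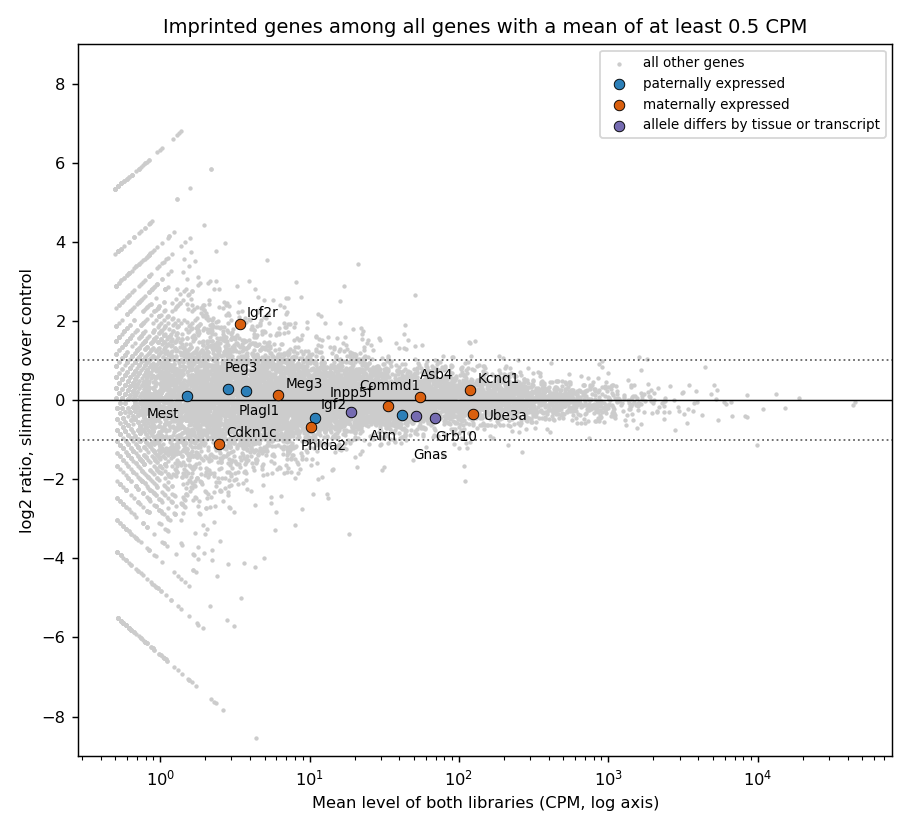
log2 ratio of slimming over control (y axis) against the mean level of both libraries in CPM (x axis, log) for all genes with a mean of at least 0.5 CPM (grey) and for the imprinted genes (coloured by parental group); dotted lines mark 2-fold. The imprinted genes lie within the grey cloud, with Igf2r (1.93) and Cdkn1c (-1.11) beyond the lines. Of the 10 at 10 CPM or more 8 lie below 0, as do 2777 of all 5714 genes at that level.

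In the neighbourhood of Cdkn1c on distal chromosome 7, Slc22a18, a transporter of the same domain, had 0 counts in slimming oocytes and 15 counts (0.741 CPM) in control oocytes. With the floor of 3 counts in place of 0 it was at least 5.29-fold lower. Genes at 0 were more numerous in the slimming library, 2186 of the 18017 genes with counts, against 1551 in the control library. Cdkn1c, Slc22a18 and Phlda2 follow each other on the chromosome, and all 3 had fewer counts in the slimming library. Next to them Nap1l4, a nucleosome assembly protein gene, was close to equal at 634 CPM in slimming oocytes and 658 CPM in control oocytes (log2 -0.08), and Osbpl5, an oxysterol-binding protein gene, had 6.83 CPM in slimming oocytes and 11.4 CPM in control oocytes (log2 -0.76, interval -1.08 to -0.46). On the other side of Cdkn1c lie Kcnq1, whose ratio was above 0, and Tssc4, with 10.5 CPM in slimming oocytes and 13.2 CPM in control oocytes (log2 -0.37). Cd81, a tetraspanin gene beside Tssc4, went against the run of lower genes, with 46 counts in slimming oocytes and 26 in control oocytes (log2 0.73, interval 0.02 to 1.495). Toward Igf2, Ins2 (an insulin gene) had a log2 ratio of 0.36 and Th (tyrosine hydroxylase) of -0.20. The run of lower genes was noticed after the values were seen.

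**Figure D4:**
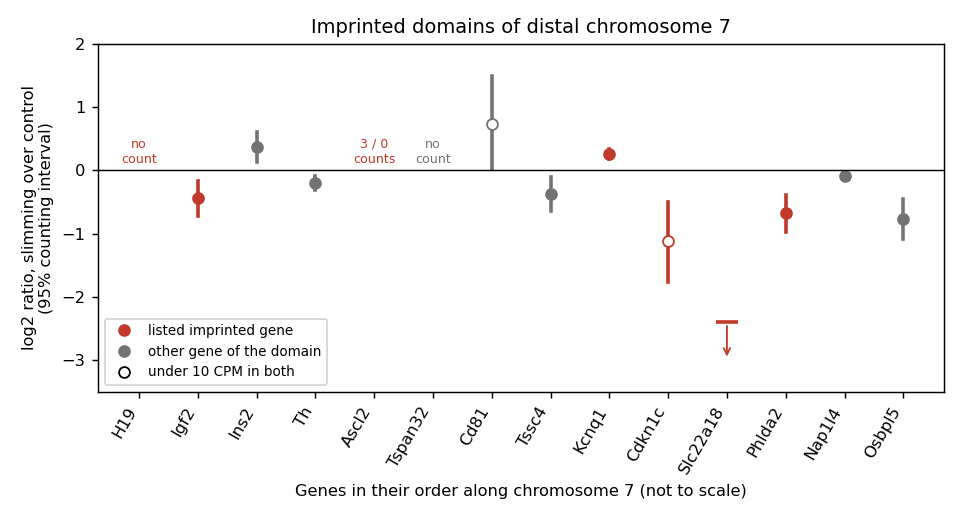
log2 ratio of slimming over control (y axis) with its 95% counting interval for 14 genes of the Igf2 and Kcnq1 domains in their order along distal chromosome 7 (x axis, not to scale), listed imprinted genes in red and other genes of the domains in grey. Cdkn1c (-1.11), Slc22a18 (an upper bound, with the arrow pointing lower) and Phlda2 (-0.68) stand next to each other below 0, Kcnq1 stands at 0.26, and H19 and Tspan32 had no count; Ascl2 had 3 counts in slimming oocytes and 0 in control oocytes.

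The genes with a mixed pattern were alike in direction. Grb10 (ENSMUSG00000020176, chromosome 11), an adaptor that dampens insulin and IGF receptor signals and is maternally expressed in most tissues but paternally in neurons, had 1247 counts (59.5 CPM) in slimming oocytes and 1607 counts (79.4 CPM) in control oocytes. Its log2 ratio was -0.45 (interval -0.55 to -0.34). Gnas, the stimulatory G protein subunit whose locus makes maternal, paternal and biallelic transcripts, had 953 counts (45.5 CPM) in slimming oocytes and 1183 counts (58.4 CPM) in control oocytes, a log2 ratio of -0.39 (-0.52 to -0.27). Inpp5f, a phosphoinositide phosphatase with 1 paternally expressed variant, had 363 counts (17.3 CPM) in slimming oocytes and 420 counts (20.7 CPM) in control oocytes, a log2 ratio of -0.29 (-0.50 to -0.09). Summed with Ddc, the group had 122 CPM in slimming oocytes and 159 CPM in control oocytes, and slimming oocytes gave 44.4% of its counts (43.1 to 45.7). The gene-level counts do not separate the transcripts of these loci. Ddc, dopa decarboxylase, the neighbour of Grb10, had 0 and 5 counts in slimming and control oocytes. Nespas, the antisense RNA of the Gnas locus, had 1 count in slimming oocytes and 34 in control oocytes (log2 -4.60, interval -10.5 to -2.59), and it shares 988 exon bases with Gnas.

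Grouped by parental copy, the median log2 ratio at 10 CPM or more was -0.41 for 2 paternally expressed, -0.15 for 5 maternally expressed and -0.39 for 3 mixed genes. The maternally expressed median was -0.04 over 8 genes at 1 CPM or more, 0.08 over 11 with any count, -0.30 over the 2 that share no exon sequence and -0.36 over 7 with Grb10 and Gnas added. The ranges overlapped: maternally expressed genes ran from -0.68 to 0.26. Summed, maternally expressed genes had 352 CPM in slimming oocytes and 357 CPM in control oocytes, and slimming oocytes gave 50.5% of the counts (49.7 to 51.3), an interval that includes the library share of 50.9%. Without Ube3a, the member with most counts, it was 53.4% (52.4 to 54.4), and Kcnq1 and Ube3a, which hold much of the sum, had ratios of opposite sign. Of the genes under a region methylated in sperm, Igf2 and Meg3 had counts, with ratios of -0.44 and 0.13, and H19, Dlk1 and Rasgrf1 were blank.

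Other imprinted genes, from a list of 42 of which 39 were matched, had ratios on both sides of 0. Of 15 at 10 CPM or more, 6 had ratios above and 9 below 0, with a median of -0.05. Of all 5714 genes at that level, 2937 were above 0 and 2777 below. Against 4.67% of all genes at that level, 1 of the 15 was 2-fold apart. That gene, which passed 10 CPM only through the slimming library, was Gab1, an adaptor of growth factor receptors that is paternally expressed in the mouse placenta, with 11.03 CPM in slimming oocytes and 3.26 CPM in control oocytes (log2 1.72, interval 1.33 to 2.14). Ppp1r9a, a neuronal actin-binding protein gene beside Peg10, had 9.45 CPM in slimming oocytes and 15.9 CPM in control oocytes (log2 -0.78, interval -1.04 to -0.52). Like Osbpl5, it passed 10 CPM only through the control library. Osbpl5, Tssc4, Ins2 and Blcap, which complete the 6 largest ratios of that list, are given with their domains above, as are Usp29, Trappc9, Herc3, Th, Nap1l4, Cd81 and Copg2 of the same list. Sfmbt2, a Polycomb protein gene that is paternally expressed in the mouse placenta, had 0 counts in slimming oocytes and 41 counts (2.03 CPM) in control oocytes, at least 14.5-fold lower, and was named after its value was seen.

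RNAs for proteins that act on imprints or on DNA methylation were counted as well. Of 18 matched genes 14 reached 10 CPM, where 15.8% of all genes in the table did. Of these, 7 had a ratio above and 7 below 0, with a median of 0.01, beside 2937 above and 2777 below of all 5714 genes at that level. None was 2-fold apart, where 4.67% of all genes at that level were. Kdm1a, a histone demethylase, had 16.3 CPM in slimming oocytes and 8.45 CPM in control oocytes (log2 0.92), and passed 10 CPM only through the slimming library. Uhrf1, which guides DNMT1 to DNA, had 66.4 CPM in slimming oocytes and 118 CPM in control oocytes (log2 -0.86). The oocyte methyltransferase Dnmt3a had 52.0 CPM in slimming oocytes and 65.7 CPM in control oocytes (log2 -0.37), and its partner Dnmt3l had 132 CPM in slimming oocytes and 83.5 CPM in control oocytes (log2 0.63), opposite in sign. The insulator protein gene Ctcf had a log2 ratio of -0.52 (50.6 CPM in slimming oocytes and 70.9 CPM in control oocytes). Trim28 had 1937 CPM in slimming oocytes and 2308 CPM in control oocytes (log2 -0.28), and Zfp57 had 9.69 CPM in slimming oocytes and 8.15 CPM in control oocytes (log2 0.22, interval -0.09 to 0.52).

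Markers of the egg were present in both libraries, with all 10 listed oocyte genes at 10 CPM or more. The egg coat genes Zp1, Zp2 and Zp3 had log2 ratios of 0.94, 0.81 and 1.03, and the other 7 lay between -0.12 (H1foo) and 0.25 (Bmp15). Markers of other ovarian and oviduct cells were counted beside them, since such cells also make imprinted RNAs such as Igf2; their part in the results was not tested. Of 10 stromal and theca markers 5 had counts, in all 71 counts (3.39 CPM) in slimming oocytes and 34 counts (1.68 CPM) in control oocytes, and Col1a2, Lum, Pdgfra, Cyp17a1 and Star were blank. Acta2 gave 43 of these in slimming oocytes and 0 in control oocytes, and without it the sums were 28 counts in slimming oocytes and 34 in control oocytes. Of 14 cumulus and granulosa markers 8 had counts, summing to 533 CPM in slimming oocytes and 532 CPM in control oocytes, nearly all of it Serpine2. Without Serpine2 the sums were 41.3 CPM in slimming oocytes and 57.0 CPM in control oocytes. Fshr, Amh, Foxl2, Ptgs2, Ptx3 and Pgr were blank, and Inha, Inhba and Tnfaip6 had 0 counts in slimming oocytes but 63, 12 and 8 in control oocytes. Hsd3b1 had 1 and 72 counts in slimming and control oocytes, and Has2, the other way, had 5 and 2. Of 12 immune markers 11 had counts, summing to 25.8 CPM in slimming oocytes and 43.5 CPM in control oocytes. H2-Aa gave most of it, with 17.9 and 27.2 CPM, and Laptm5 was slightly higher in slimming oocytes. In the slimming library 7 were at 0 and in the control library none, where 2186 and 1551 of all 18017 genes with counts were at 0. Of the 7, Lyz2, H2-Ab1, Adgre1 and Csf1r had only 1, 4, 7 and 8 counts in control oocytes. The others, C1qa, Tyrobp and Fcer1g, had 11, 57 and 62 counts in control oocytes. Of 9 oviduct markers 8 had counts, with sums of 246 CPM in slimming oocytes and 246 CPM in control oocytes, nearly all of it Cdh1. Without Cdh1 they were 6.44 CPM in slimming oocytes and 13.1 CPM in control oocytes. Tppp3 had 93 counts in slimming oocytes and 210 in control oocytes (log2 -1.25, interval -1.62 to -0.90). Epcam and Krt8 had 10 and 6 counts in slimming oocytes and 20 and 11 in control oocytes. Dnah5 went the other way, with 26 counts in slimming oocytes and 15 in control oocytes (log2 0.69, interval -0.26 to 1.73). The 3 markers at 0 in slimming oocytes, Ovgp1, Pax8 and Krt18, had only 6, 2 and 1 counts in control oocytes, where none was at 0. Of 7 markers of the 2-cell embryo 2 had counts, 2 in slimming oocytes and 1 in control oocytes.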

How the data were processed

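Messenger RNA of 9 pooled metaphase II oocytes per group was primed with an oligo(dT) stretch of 24 bases, tailed, amplified for 18 and then 14 PCR cycles and sequenced on a SOLiD 4 instrument, per the labels' protocols. The authors deposited raw counts per gene for 18017 of 36227 genes, slimming first per the file headers. A log2 ratio per gene and a p-value with its q-values, also deposited, compare the reads of the libraries. A score per gene (a z-score) was computed by the authors from the same reads, per the file headers, and deposited. The submitters' processing notes give build mm9. The aligner, the counting tool and any use of strand are not given in sources used here. No molecular identifiers are named, so PCR copies are not separable from molecules. Intervals and floors cover counting error only.

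Identifiers were matched to GENCODE vM21 (GRCm38), used for symbols, exon lengths and overlaps: 16913 genes with counts matched and 1104 did not. TMM factors (1.01 slimming, 0.989 control) came from edgeR 4.0.16 in R 4.3.3, and median-of-ratios size factors from DESeq2 1.42.0. The log2 ratio used 0.5 added to each count, with 95% intervals from the exact Clopper-Pearson share of counts (Python 3.11.15, scipy 1.17.1). The ratio and interval were run on simulated data as a check of the calculation only. Such data cannot show the spread between pools or from PCR copies, which the intervals leave out. Genes at 10 CPM or more in at least 1 library were called expressed and described in full; members below by their counts. Of other imprinted and imprint-keeping genes the 6 expressed with the largest absolute ratio were named; Zfp57, Usp29, Herc3, Trappc9, Th, Nap1l4, Cd81, Copg2, Nespas and Gm38393 are named as neighbours, overlapping genes or background. With 1 library per group no test was run. Members and lists were chosen with earlier results of these data known.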

Additional observations from a re-analysis of the deposited data

How the results depend on the processing

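Signs held for all 17 members with at least 10 counts under scaling by total count, scaling by median-of-ratios size factors, 1 added to each count, and subtraction of the median of genes of like transcript length; under the last the ratio of Ube3a was -0.27, outside its counting interval. The median over members was between -0.41 (without members that share exon sequence, 4 left) and -0.22 (1 CPM limit). The median of paternally expressed genes turned to 0.10 with the 1 CPM limit and was 0.10 with no filter, since Plagl1, Peg3 and Mest then enter. The number of members at least 2-fold apart, 0 at the 10 CPM limit, was 2 of 16 at 1 CPM and 8 of 22 with no filter, where 18.4% and 38.6% of all genes were; without a filter, ratios of genes at 0 in 1 library depend on the added count. With Grb10 and Gnas counted as maternal, the maternal median was -0.36; it was -0.04 with the 1 CPM limit, 0.08 with no filter and -0.30 without members that share exon sequence. No paired analysis was possible because each group is 1 library. Depth limits the genes under 1 CPM, whose ratios rest on 15 counts or fewer.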
